A study of Homo sapiens with 6 samples.

Results

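The secreted and membrane-bound metalloproteases of the MMP, ADAM and ADAMTS families and their inhibitors, the TIMPs, were examined in RNA-seq data of a human oral squamous cell carcinoma line held at low oxygen. Members were the protein-coding rows of the count table whose symbol is MMP, ADAM or ADAMTS followed by a number, or TIMP1 to TIMP4. This gave 52 of the 21776 genes in the table: 17 MMP, 15 ADAM, 16 ADAMTS and 4 TIMP genes. The cells are labelled SCC25, a wild-type established line, and were kept for 12 h either in a gas mixture with 1% O2 and 5% CO2 (hypoxia, 3 libraries) or in a humidified incubator with 5% CO2 in air (normoxia, 3 libraries). Nothing in the labels says whether the 3 libraries of a condition came from separate cultures, so the p-values measure the spread between these libraries, which may be technical. Library totals were 30186813, 36076088 and 32272716 counts for the hypoxia libraries and 37278703, 29637189 and 29981208 counts for the normoxia libraries, in order of replicate number. In the same order, 18841, 18996 and 18766 genes had a count under hypoxia and 17505, 17128 and 17378 under normoxia. A gain from few or no counts under hypoxia is thus not particular to the genes described here.

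MMPs are zinc proteases that cut collagens, laminins and other matrix proteins. They are made as inactive proenzymes in which a cysteine of the propeptide covers the active zinc. Most ADAMs are membrane proteins that cut the outer part off other membrane proteins, a step called shedding, while several ADAMs have lost the catalytic site and act in adhesion. ADAMTS enzymes are secreted, carry thrombospondin repeats and cut proteoglycans, procollagens or von Willebrand factor. TIMPs bind the active site of these proteases, and TIMP3 has the widest reach among ADAMs and ADAMTSs. In squamous carcinoma these families are studied for their part in invasion and in the release of growth factors.

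The labels were checked first. All 15 genes of a list with a known response to hypoxia passed edgeR's quasi-likelihood test as higher under hypoxia (Benjamini-Hochberg adjusted p-value under 0.05), with a median log2-fold change of 2.71. Normoxia replicate 3 stood apart from the other normoxia libraries in the direction of hypoxia: it was the highest normoxia library in 13 of these 15 genes, with CA9, a carbonic anhydrase, at 67.7 CPM (counts scaled to a common library size) against 32.2 and 27.3, and NDRG1 at 409 against 163 and 140. It was also the highest normoxia library in 21 of the 33 protease and TIMP genes with enough counts for the test. The same count over all tested genes was not made. The 21 held ADAM8, MMP2, ADAMTS7 and ADAMTS13, which were higher under hypoxia, and also ADAM12 and ADAMTS15, which were lower, and TIMP1, which was not called. MMP17, MMP19 and ADAM22, higher under hypoxia, were highest in normoxia replicate 1. Without normoxia replicate 3, 18 of the 19 members called higher with all libraries kept the call, and ADAM21 lost it (edgeR adjusted p = 0.0756). Of 10 markers of squamous epithelium, TP63, the squamous lineage factor, had 68.3 ± 3.56 CPM (mean ± SD, n = 3) under hypoxia and 62.7 ± 17.1 under normoxia, and KRT5, a basal keratin, had 111 ± 5.49 and 126 ± 9.90. KRT14, the usual partner of KRT5, had 0 counts in 5 libraries and 1 in normoxia replicate 2. Of the 9 tested markers 4 were higher, 4 lower and 1 not called. KRT6A, a keratin of activated keratinocytes, moved most, from 16.5 ± 3.86 CPM under normoxia to 0.951 ± 0.491 under hypoxia (log2-fold change -4.12, edgeR adjusted p = 7.48e-11), and SFN, an epithelial 14-3-3 protein, fell by 0.80. The summed CPM of all 10 was 1097, 1071 and 1087 under hypoxia and 924, 936 and 982 under normoxia, of which CDH1 (E-cadherin), the most abundant, made 479 ± 4.85 and 188 ± 10.9, a larger difference than that of the sum.

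Of the 52 members, 33 passed edgeR's filter on low counts, and 25 of these were called at an adjusted p-value under 0.05. They were higher under hypoxia in 19 cases and lower in 6, so that 57.6% of the tested members were higher against 39.2% of all 14255 tested genes, and 18.2% were lower against 38.5%. With a log2-fold change of at least 1 in size as a second condition, 14 members were higher (background 19.9% of tested genes) and 2 lower (background 10.5%). The filter could be met by the libraries of either condition alone. Among the 14, ADAM21, ADAMTS13, MMP9, MMP19, MMP25 and MMP28 had fewer than 10 counts in some normoxia library and entered through their hypoxia libraries. When no library was allowed below 10 counts, 24 members were tested, with 14 called higher and 5 lower. Of these 14 higher members, 13 were among the 19 above. In that setting 4998 of 12665 genes were higher and 4969 lower. The median log2-fold change of the 33 tested members was 0.75, and that of all tested genes 0.02. In 27 of the 33 the hypoxia and normoxia libraries did not overlap, where 80.5% of all tested genes showed no overlap, a share close to that of the members. By family, 7 MMPs were higher and 2 lower of 12 tested, 7 ADAMs were higher and 1 lower of 11, 3 ADAMTSs were higher and 3 lower of 6, and 2 TIMPs were higher of 4.

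**Figure D1:**
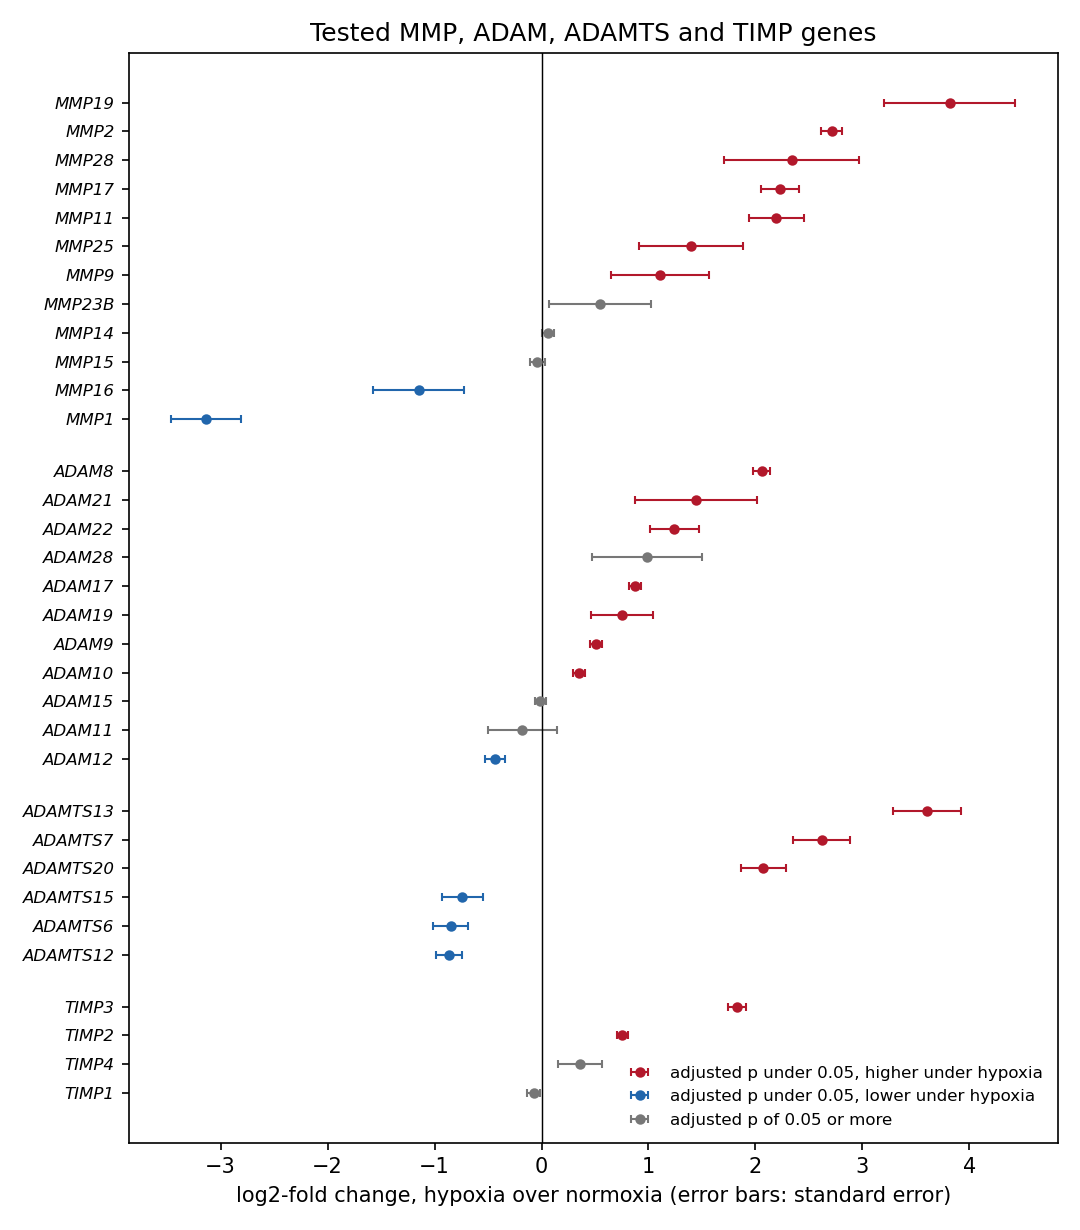
Log2-fold change of the 33 tested genes, hypoxia over normoxia, by family (horizontal axis; points are edgeR estimates, bars are standard errors, colour is the call at an adjusted p-value of 0.05). MMP19 at 3.82 and ADAMTS13 at 3.60 lie farthest to the right and MMP1 at -3.13 farthest to the left, while MMP14, MMP15, ADAM15 and TIMP1 lie close to 0.

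The genes differed widely in level. Per length of gene, ADAM15 headed the normoxia libraries with 68.5 ± 1.47 FPKM (counts per kilobase of gene, scaled to the library total; SD, n = 3), followed by ADAM8 with 56.5 ± 8.77 and ADAM9 with 53.4 ± 3.00, which overlapped each other. MMP14 at 46.4 ± 2.81, TIMP1 at 43.6 ± 1.05 and TIMP2 at 43.3 ± 2.22 FPKM came next. ADAM8 and MMP14 overlapped, with 49.1 FPKM in the lowest ADAM8 library and 49.7 FPKM in the highest MMP14 library. The TIMP2 libraries overlapped those of both MMP14 and TIMP1, whereas every MMP14 library lay above every TIMP1 library, by a narrow margin (lowest 44.8 and highest 44.7 FPKM). Under hypoxia ADAM8 stood alone at the top with 243 ± 7.67 FPKM, and ADAM9 (78.5 ± 1.34), TIMP2 (75.4 ± 0.729) and ADAM15 (70.3 ± 0.188) followed. All 52 members together summed to 650, 671 and 654 FPKM in the hypoxia libraries and to 359, 354 and 389 FPKM in the normoxia libraries. They took 0.260%, 0.269% and 0.260% of the counts under hypoxia and 0.142%, 0.140% and 0.154% under normoxia. In a bulk library, a change in the number of cells that make a transcript and a change in the transcript per cell cannot be told apart.

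**Figure D2:**
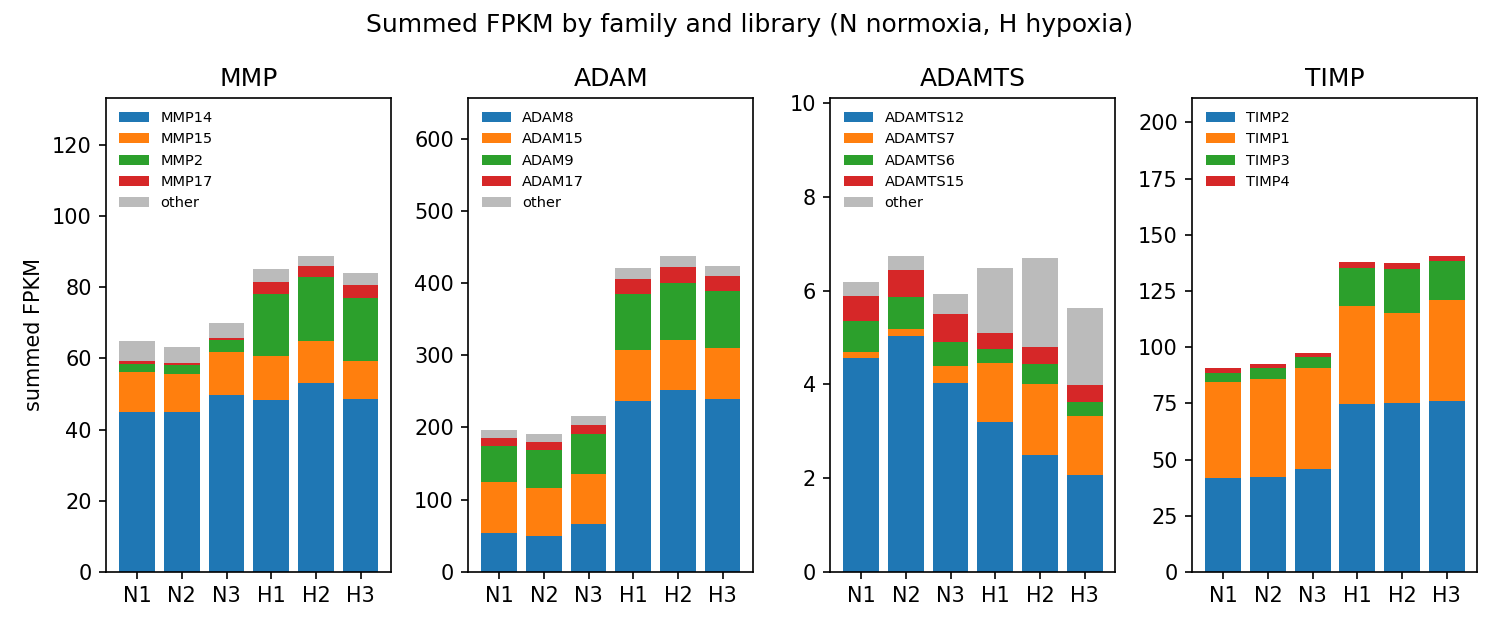
Summed FPKM of each family in each library (vertical axis), stacked by the 4 genes with the highest level and the rest; N marks normoxia and H hypoxia, with the replicate number. The ADAM bar rises from 191 to 216 FPKM in normoxia to 420 to 438 in hypoxia with most of the gain in ADAM8, and the MMP bar gains MMP2 on an even base of MMP14.

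The promoters of the members were read for short motifs. HIF, the transcription factor of the hypoxia response, binds sites with the core ACGTG, or with its common variant GCGTG. AP-1, a known regulator of MMP genes, has the consensus TGACTCA or TGAGTCA. The search was looser and took any base at the centre (TGANTCA). RefSeq promoters (GRCh38.p14) were matched for 30 of the 52 members, and the 250 bases before the annotated start were searched on both strands, overlapping matches included. A HIF core of either spelling was found in 4 of the 11 members that were higher and had a sequence, 2 of the 3 that were lower and 2 of the 6 that were not called. Such a core stood in 43.2% of all 35116 promoters of this length and in 56.7% of those of tested genes, against 36.4% of the higher members. TGANTCA was found in 0 of the 11 higher members and 1 of the 3 lower members, and in 6.57% of all promoters and 4.30% of those of tested genes. GGGCGG, a core of Sp1 sites, was found in 17 of the 20 tested members and in 42.6% of all promoters and 66.2% of those of tested genes. A match is a string of letters and not a measured site, and the absence of a match describes this window only. The promoters of 5 genes are shown, 5′ to 3′ on the strand of the gene, with the HIF cores and TGANTCA in capitals on whichever strand they read, namely ADAM8, ADAM17 and TIMP3, abundant genes that were higher, ADAMTS12, which was lower, and MMP10, a gene of the chromosome 11 row described with MMP1. They lie at chr10:133276869-133277118 (minus strand), chr2:9555831-9556080 (minus), chr22:32801455-32801704 (plus), chr5:33891991-33892240 (minus) and chr11:102780629-102780878 (minus).
ADAM8: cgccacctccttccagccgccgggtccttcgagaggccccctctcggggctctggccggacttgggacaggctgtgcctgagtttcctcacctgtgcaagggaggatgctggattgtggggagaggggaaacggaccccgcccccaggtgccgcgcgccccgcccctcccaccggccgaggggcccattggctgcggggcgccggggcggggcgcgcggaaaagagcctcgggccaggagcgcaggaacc
ADAM17: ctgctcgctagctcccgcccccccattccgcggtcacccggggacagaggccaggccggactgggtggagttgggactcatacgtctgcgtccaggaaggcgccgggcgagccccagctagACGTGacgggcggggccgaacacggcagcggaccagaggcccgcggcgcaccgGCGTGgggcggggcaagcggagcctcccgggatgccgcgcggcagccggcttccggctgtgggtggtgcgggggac
TIMP3: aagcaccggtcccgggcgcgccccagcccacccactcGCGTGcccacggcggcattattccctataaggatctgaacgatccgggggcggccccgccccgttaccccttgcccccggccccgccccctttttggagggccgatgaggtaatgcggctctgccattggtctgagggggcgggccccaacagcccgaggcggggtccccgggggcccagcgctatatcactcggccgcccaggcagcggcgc
ADAMTS12: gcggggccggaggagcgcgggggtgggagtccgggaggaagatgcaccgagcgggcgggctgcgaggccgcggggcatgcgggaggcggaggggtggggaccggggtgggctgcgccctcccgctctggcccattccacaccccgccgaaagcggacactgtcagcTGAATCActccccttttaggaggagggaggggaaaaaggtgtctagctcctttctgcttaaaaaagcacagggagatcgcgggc
MMP10: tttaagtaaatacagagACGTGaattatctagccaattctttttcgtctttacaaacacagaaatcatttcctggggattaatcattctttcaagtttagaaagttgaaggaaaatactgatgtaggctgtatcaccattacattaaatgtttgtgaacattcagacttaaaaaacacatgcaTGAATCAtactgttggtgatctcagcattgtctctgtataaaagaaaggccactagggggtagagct
The ADAM8 promoter held no HIF core and no TGANTCA. That of ADAM17 held 2 cores, 129 and 76 bases before the start, and that of TIMP3 held 1, 213 bases before the start. MMP10 held 1 core, 233 bases before the start, and a TGANTCA 67 bases before it. ADAMTS12 held a TGANTCA 84 bases before the start. In both MMP10 and ADAMTS12 it read TGAATCA, which is not the AP-1 consensus. GC content was 73.6% for ADAM8, 75.6% for ADAM17, 72.4% for TIMP3, 68.4% for ADAMTS12 and 34.4% for MMP10.

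Among the ADAMs that shed membrane proteins, ADAM8 showed the largest response. ADAM8, a protease of leukocytes and of several carcinomas that activates itself, had 889, 925 and 903 CPM in the hypoxia libraries and 205, 193 and 254 CPM in the normoxia libraries. Every hypoxia library was thus far above every normoxia library. The log2-fold change was 2.06 (± 0.078 SE, edgeR adjusted p = 3.43e-13), a 4.17-fold increase, and it stayed between 1.97 and 2.17 with single libraries left out. ADAM8 made up 56.8% of the summed ADAM FPKM under hypoxia and 27.9% under normoxia. Leukocyte markers were looked up because ADAM8 is abundant in these cells. Of 10 markers 7 were in the table, and PTPRC, CD3E and LYZ had 3 or fewer counts in every library. ITGAM, an integrin of myeloid cells, had 6, 15 and 10 counts under hypoxia and 2, 3 and 2 under normoxia, without overlap, and was not tested. The summed CPM of the list was 40.1, 44.5 and 46.0 under hypoxia and 35.1, 33.7 and 37.2 under normoxia, and most of it was CD68 with means of 31.0 and 33.1 CPM. CSF1R and CD14 passed the test as higher (log2-fold changes 2.49 and 2.45), from 1.10 and 1.07 CPM under normoxia, and their part in the result was not tested.

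ADAM17, the enzyme that releases TNF and several EGF receptor ligands, had 135, 138 and 137 CPM under hypoxia and 72.7, 72.2 and 79.0 CPM under normoxia. The groups were far apart, with a log2-fold change of 0.87 (± 0.055 SE, edgeR adjusted p = 1.36e-10). Its exons share 12.3% of their bases with IAH1 on the opposite strand in GENCODE v29, and IAH1 had a log2-fold change of 0.17 (adjusted p = 0.0539 by the same test). ADAM10, which cuts Notch and E-cadherin, had 135, 134 and 128 CPM against 99.5, 103 and 109, a log2-fold change of 0.35 (± 0.055 SE, edgeR adjusted p = 1.49e-05). All 3 hypoxia libraries lay above the normoxia libraries, though by less than for ADAM17. The FPKM ratio of ADAM10 to ADAM17 was 0.588, 0.572 and 0.550 under hypoxia and 0.806, 0.839 and 0.812 under normoxia. ADAM9, a widely expressed sheddase, had 354, 357 and 368 CPM against 235, 257 and 266, a log2-fold change of 0.51 (± 0.055 SE, edgeR adjusted p = 1.68e-07). ADAM15, an adhesion-linked ADAM with an integrin-binding motif, had 225, 220 and 227 CPM against 226, 224 and 226, and its log2-fold change of -0.01 (± 0.048 SE, edgeR adjusted p = 0.857) did not pass.

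ADAM12, a protease made by many tumors and by fusing myoblasts, was the ADAM that fell. It had 18.4, 20.0 and 16.1 CPM under hypoxia and 24.3, 23.2 and 26.4 CPM under normoxia, without overlap, and a log2-fold change of -0.44 (± 0.094 SE, edgeR adjusted p = 3.98e-04). ADAM19, a relative with a role in heart development, had 2.52, 1.72 and 2.06 CPM against 1.10, 0.979 and 1.66. The closest libraries nearly touched. Its log2-fold change of 0.75 (± 0.29 SE, edgeR adjusted p = 0.0250) lost the call without hypoxia replicate 1 (0.60), hypoxia replicate 3 (0.76), normoxia replicate 1 (0.65) or normoxia replicate 2 (0.61). ADAM22, which lacks the catalytic site and is a synaptic receptor of LGI proteins, had 4.16, 5.00 and 5.33 CPM against 2.74, 1.92 and 1.39, a log2-fold change of 1.24 (± 0.23 SE, edgeR adjusted p = 8.70e-05). The other ADAMs had low counts. ADAM21, a gene known from testis with a close paralog in ADAM20, had 18, 17 and 21 counts against 15, 1 and 4 and was called higher (log2-fold change 1.44, adjusted p = 0.0295, edgeR). That call was lost without hypoxia replicate 1 (1.41), hypoxia replicate 3 (1.33), normoxia replicate 2 (0.99) or normoxia replicate 3 (1.23). Normoxia replicate 1 held 15 of the 20 normoxia counts, and without it the log2-fold change was 2.64 (edgeR adjusted p = 0.00345). ADAM28, with 10, 23 and 12 counts against 5, 7 and 9 (adjusted p = 0.0912), and ADAM11, with 41, 31 and 39 against 52, 27 and 43 (adjusted p = 0.614, both edgeR), were not called. ADAM2, ADAM20, ADAM23 and ADAM32 were not tested and had at most 16 counts in any library; ADAM2, a sperm surface protein, had 3, 6 and 7 counts under hypoxia and 0 in each normoxia library.

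**Figure D3:**
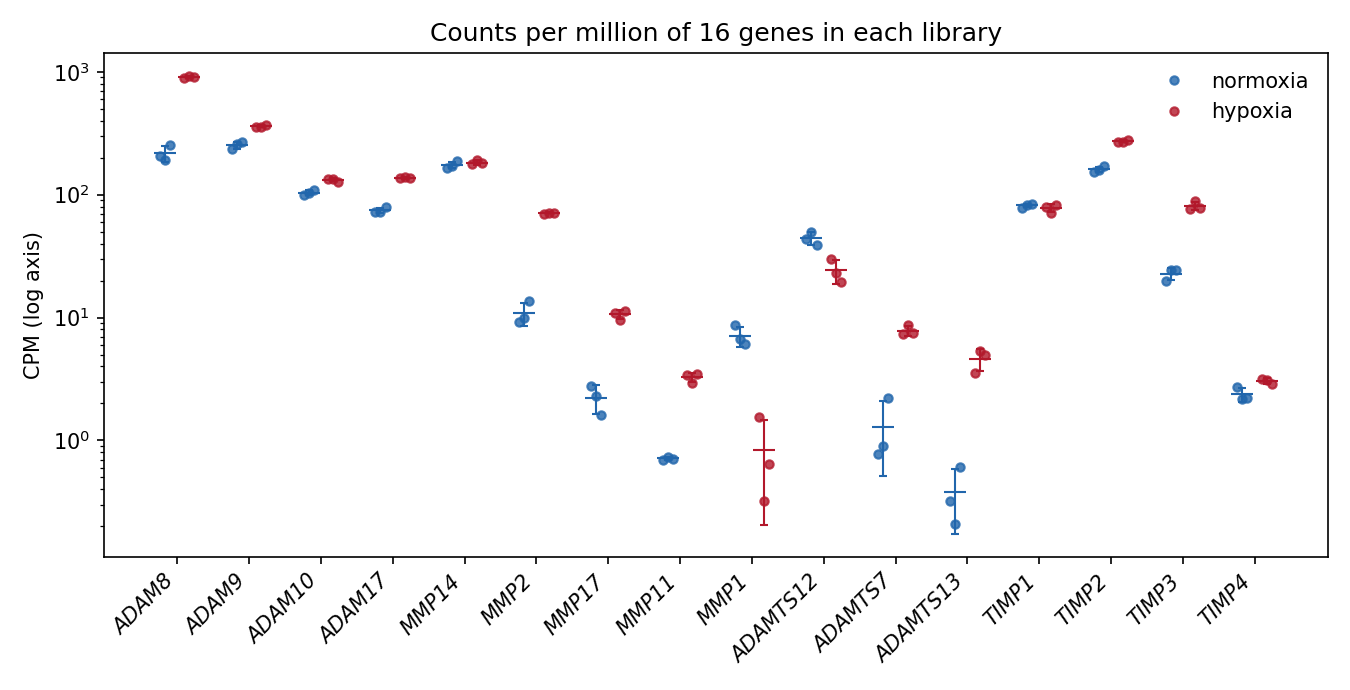
CPM of 16 genes in each library on a log axis (points are libraries, horizontal dashes are means, bars are SD, n = 3 per condition). ADAM8, MMP2 and TIMP3 separate widely between the conditions, MMP1 falls to between 0.323 and 1.54 CPM with a wide spread, and MMP14 and TIMP1 overlap.

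The MMPs are taken by class, and members of a class did not always move together. Among the gelatinases, MMP2, which cuts basement membrane collagen, was the MMP with the largest gain in level. It had 70.2, 71.5 and 71.5 CPM under hypoxia and 9.19, 10.0 and 13.5 CPM under normoxia. The hypoxia libraries lay close together and far above the normoxia libraries. The log2-fold change was 2.71 (± 0.10 SE, edgeR adjusted p = 2.55e-13), and with single libraries left out it ranged from 2.58 to 2.88. MMP2 rose from 3.95% to 20.5% of the summed MMP FPKM. MMP9, the other gelatinase, shares 18.4% of its exon bases with SLC12A5-AS1 on the opposite strand in GENCODE v29. It was scarce, with 19, 20 and 18 counts under hypoxia and 9, 5 and 11 under normoxia. Its call as higher (log2-fold change 1.11 ± 0.46 SE, edgeR adjusted p = 0.0351) did not hold under most alternatives, among them the DESeq2 Wald test (adjusted p = 0.0848) and the replicate block (adjusted p = 0.0578), with adjusted p-values up to 0.141. Without hypoxia replicate 1, 2 or 3 or normoxia replicate 1 or 2 the log2-fold change was 1.04, 1.15, 1.12, 1.03 and 0.90, and the call was lost each time.

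Fibroblast markers were looked up beside MMP2, since stromal cells are a usual source of it. Of 10 markers 9 were in the table and 3 were tested; COL1A1 and FAP were called higher, with log2-fold changes of 2.26 and 0.61, and PDGFRB was not (adjusted p = 0.0507, edgeR). The summed CPM of the list was 25.3, 21.2 and 20.8 under hypoxia and 5.62, 5.00 and 8.15 under normoxia, of which COL1A1, the most abundant, made most (611, 667 and 518 counts against 131, 78 and 149). COL3A1 had 2, 0 and 1 counts under hypoxia and 0 in each normoxia library, and DCN, the fibroblast proteoglycan decorin, had 2, 0 and 0 counts against 2, 4 and 0. LUM, the related proteoglycan lumican, had 27, 9 and 8 counts against 1, 1 and 2, without overlap and in the direction of COL1A1, and COL1A2 had 9, 0 and 8 counts against 3, 0 and 5. PDGFRA and THY1 had at most 6 counts in any library. Of 7 endothelial markers, 5 were in the table and CDH5 alone was tested and called higher (log2-fold change 1.14), with summed CPM for the list of 1.70, 1.32 and 1.60 against 0.296, 0.315 and 0.744. The untested ones were also higher under hypoxia without overlap, at few counts. VWF had 10, 9 and 4 counts against 0 in each normoxia library, and PECAM1 had 5, 9 and 10 against 2, 0 and 0. KDR had 4, 1 and 1 and TEK 1, 2 and 3, both against 0 in each normoxia library. The part of these markers in the result for MMP2 was not tested.

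MMP1, the interstitial collagenase, had the largest fold decrease among the 33 tested members. It had 47, 12 and 21 counts under hypoxia and 321, 191 and 180 under normoxia, or 1.54, 0.323 and 0.647 CPM against 8.63, 6.68 and 6.08. The highest hypoxia library was still well below the lowest normoxia library, although the hypoxia libraries differed among themselves. The log2-fold change was -3.13 (± 0.33 SE, edgeR adjusted p = 1.10e-07), an 8.78-fold decrease, and it ranged from -3.91 (without hypoxia replicate 1) to -2.72 (without hypoxia replicate 2) with single libraries left out. Its exons share 7.61% of their bases with the antisense gene WTAPP1 in GENCODE v29. MMP13, the other collagenase in the table, had 1 count in hypoxia replicate 2 and in normoxia replicate 2 and none elsewhere, so its level was not measurable.

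MMP1 belongs to a row of MMP genes on chromosome 11, of which 5 of 9 were in the table. All but MMP1 were too scarce for the test. MMP10, stromelysin 2, had 0, 1 and 0 counts under hypoxia and 13, 11 and 2 under normoxia; the ratio of summed counts was 27.3-fold lower under hypoxia (exact 95% interval 4.49 to 1119, counting error only). MMP3, stromelysin 1, had 1, 0 and 0 counts against 6, 3 and 8, a ratio 17.9-fold lower (2.80 to 746, counting error only). MMP7, matrilysin, had 5, 4 and 1 counts against 1, 4 and 3. In MMP1, MMP3 and MMP10 no hypoxia library reached the lowest normoxia library, and in MMP7 and MMP13 the libraries overlapped. The third stromelysin, MMP11, lies elsewhere and is activated inside the cell by furin. It had 3.44, 2.96 and 3.45 CPM under hypoxia and 0.699, 0.734 and 0.710 CPM under normoxia, a log2-fold change of 2.19 (± 0.26 SE, edgeR adjusted p = 5.00e-07), opposite in direction to MMP1.

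The membrane-type MMPs were led by MMP14, which activates MMP2 at the cell surface with TIMP2 as a bridge. MMP14 had 177, 191 and 179 CPM under hypoxia and 166, 172 and 186 CPM under normoxia. The conditions overlapped, and the log2-fold change of 0.06 (± 0.057 SE, edgeR adjusted p = 0.333) did not pass. Under a filter of at least 10 counts per library it was 0.14 and passed (adjusted p = 0.0348, edgeR), a setting that moved the log2-fold changes of all shared genes up by a median of 0.078. MMP15, another transmembrane type, had 49.5, 46.1 and 42.8 CPM against 46.3, 45.9 and 50.1 and was not called (log2-fold change -0.04, adjusted p = 0.601, edgeR). MMP17, which is held by a lipid anchor, had 10.8, 9.63 and 11.3 CPM against 2.77, 2.31 and 1.62, with a log2-fold change of 2.23 (± 0.17 SE, edgeR adjusted p = 2.43e-09). The lowest hypoxia library was several-fold above the highest normoxia library.

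MMP25, the other type with a lipid anchor and known from neutrophils, had 27, 23 and 48 counts under hypoxia and 7, 8 and 20 under normoxia (log2-fold change 1.40, adjusted p = 0.0153, edgeR). The libraries overlapped once scaled, with 0.618 CPM in hypoxia replicate 2 and 0.676 CPM in normoxia replicate 3. The call was lost on leaving out hypoxia replicate 3 (log2-fold change then 0.99) or either of normoxia replicates 1 (1.03) and 2 (1.23), and without normoxia replicate 3 the value was 2.07. MMP25-AS1, an RNA that covers 35.2% of the MMP25 exon bases on the opposite strand, had 210, 290 and 193 counts against 63, 35 and 65 and rose by 2.01 on the log2 scale. Whether counting used the strand is not given in the sources used here, so the reads of MMP25 and MMP25-AS1 cannot be told apart. MMP16, a transmembrane type, had 24, 30 and 6 counts against 41, 44 and 40 and was called lower (log2-fold change -1.15 ± 0.43 SE, edgeR adjusted p = 0.0212), but not without hypoxia replicate 3 (-0.74) or normoxia replicate 2 (-1.04). MMP24 had at most 10 counts in any library and was not tested.

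Of the remaining MMPs, MMP19, a secreted enzyme of epidermis and vessels, rose from the limit of counting. It had 42, 32 and 32 counts under hypoxia and 6, 1 and 0 under normoxia, a log2-fold change of 3.82 (± 0.61 SE, edgeR adjusted p = 2.20e-05) that ranged from 3.29 to 5.65 with single libraries left out, the highest without normoxia replicate 1. Its exons share 17.4% of their bases with TMEM198B on the opposite strand in GENCODE v29. MMP28, epilysin of keratinocytes, had 11, 26 and 35 counts against 1, 3 and 9 and a log2-fold change of 2.34 (± 0.63 SE, edgeR adjusted p = 0.00280). Leaving out normoxia replicate 1 gave 1.77 and leaving out normoxia replicate 3 gave 3.45. The groups did not overlap in either gene, but both were uneven between replicates. MMP23B, which has a near-identical neighbouring copy, had 11, 12 and 20 counts against 11, 9 and 8 and was not called (adjusted p = 0.298, edgeR).

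The ADAMTS family moved in both directions at low levels, and its summed FPKM overlapped between the conditions, with 6.48, 6.69 and 5.64 under hypoxia and 6.19, 6.74 and 5.94 under normoxia. On the CPM scale, which does not divide by gene length, the hypoxia libraries summed to 53.1, 52.3 and 44.7 and the normoxia libraries to 59.3, 66.7 and 55.3, so that hypoxia was lower without overlap. ADAMTS13, which trims von Willebrand factor, had 3.57, 5.32 and 4.96 CPM under hypoxia and 0.322, 0.210 and 0.608 CPM under normoxia. The lowest hypoxia library was several-fold above the highest normoxia library. The log2-fold change was 3.60 (± 0.32 SE, edgeR adjusted p = 1.23e-08). ADAMTS7, which cuts the cartilage protein COMP and has pseudogene copies that could share its reads, had 7.37, 8.66 and 7.46 CPM against 0.779, 0.909 and 2.20, with normoxia replicate 3 above the other normoxia libraries and still below all hypoxia libraries. Its log2-fold change was 2.62 (± 0.27 SE, edgeR adjusted p = 7.86e-08) and was 3.20 without that library. ADAMTS20, a versican-cutting enzyme, had 4.78, 5.78 and 4.90 CPM against 1.02, 1.29 and 1.39 and a log2-fold change of 2.07 (± 0.21 SE, edgeR adjusted p = 7.88e-08).

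The ADAMTS genes that fell changed less. ADAMTS12, a COMP-cutting relative of ADAMTS7, had 30.1, 23.0 and 19.5 CPM under hypoxia and 43.5, 49.6 and 38.9 CPM under normoxia, without overlap, and a log2-fold change of -0.86 (± 0.12 SE, edgeR adjusted p = 3.77e-06). ADAMTS7 took 21.4% of the summed ADAMTS FPKM under hypoxia and 3.49% under normoxia, while ADAMTS12 took 41.1% and 72.1%. ADAMTS6 fell by 0.85 and ADAMTS15, an aggrecanase-type enzyme, by 0.74 on the log2 scale (adjusted p = 1.64e-04 and 0.00230, edgeR). The procollagen-cutting enzymes ADAMTS2, ADAMTS3 and ADAMTS14 were not tested; ADAMTS3 had 5, 6 and 6 counts under hypoxia and 11, 8 and 18 under normoxia, ADAMTS14 had 2, 13 and 7 counts against 2, 0 and 2, and ADAMTS2 had at most 2 in any library. ADAMTS1 had 7, 1 and 0 counts against 1, 2 and 1, and ADAMTS4 had 2 counts in hypoxia replicate 2 and 0 elsewhere, too few for the test in either of these inflammation-linked aggrecanases. ADAMTS8, ADAMTS9, ADAMTS10, ADAMTS16 and ADAMTS17 were not tested either and had at most 18 counts in any library. ADAMTS5 was not analysed here.

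Of the inhibitors, TIMP3, which is held in the matrix and blocks ADAM17 and the aggrecanases, rose most. TIMP3 had 76.3, 88.0 and 77.7 CPM under hypoxia and 19.8, 24.4 and 24.4 CPM under normoxia, without overlap. The log2-fold change was 1.83 (± 0.083 SE, edgeR adjusted p = 2.55e-12). TIMP2 had 270, 267 and 277 CPM against 153, 160 and 170, a log2-fold change of 0.75 (± 0.053 SE, edgeR adjusted p = 6.87e-10), also without overlap. TIMP1, the broad secreted inhibitor, had 79.4, 71.2 and 82.4 CPM against 78.6, 82.9 and 83.4, and its log2-fold change of -0.07 (± 0.061 SE, edgeR adjusted p = 0.287) did not pass. TIMP4 had 3.18, 3.12 and 2.87 CPM against 2.71, 2.17 and 2.23, without overlap and with a log2-fold change of 0.36 (± 0.20 SE, edgeR adjusted p = 0.119). TIMP4 passed in the limma test of log2(FPKM + 1) (0.29 on that scale, adjusted p = 0.00871).

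Proteases and inhibitors were then set side by side on the FPKM scale, as values without a test. The FPKM of MMP2 was 0.232, 0.239 and 0.230 of that of TIMP2 under hypoxia and 0.0536, 0.0558 and 0.0711 of it under normoxia. MMP14 went the other way against TIMP2, with ratios of 0.646, 0.706 and 0.639 under hypoxia and 1.07, 1.06 and 1.08 under normoxia. ADAM17 was 1.22, 1.08 and 1.21 times TIMP3 under hypoxia and 2.54, 2.04 and 2.23 times TIMP3 under normoxia. In each of these ratios the conditions did not overlap. Summed over families, the MMPs made 0.618, 0.645 and 0.596 of the TIMPs under hypoxia and 0.712, 0.683 and 0.716 under normoxia. The summed FPKM of the TIMPs was 139 ± 1.68 (SD, n = 3) under hypoxia and 93.7 ± 3.47 under normoxia, and that of the MMPs was 85.9 ± 2.53 and 65.9 ± 3.48.

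Genes that act with these proteases were taken from lists, which are read against the 39.2% of all tested genes that were called higher and the 38.5% called lower. Of 22 activators and regulators, 17 were tested, of which 9 were higher and 2 lower, with a median log2-fold change of 0.39. LRP1, the endocytic receptor that clears many MMPs and TIMP3, had 347 ± 46.5 CPM under hypoxia and 39.9 ± 16.1 under normoxia (log2-fold change 3.13 ± 0.18 SE, edgeR adjusted p = 3.69e-11). RECK, a membrane-anchored MMP inhibitor, rose by 1.46 and SPOCK2 (testican 2) by 1.52 on the log2 scale. The iRhom RHBDF2, which carries ADAM17 to the cell surface, rose by 1.17 and its relative RHBDF1 by 0.99. TSPAN15, TSPAN5 and TSPAN10, tetraspanins of the group that escorts ADAM10, rose by 1.07, 1.10 and 1.73, while TSPAN14, TSPAN17 and TSPAN33 were not called. FURIN and PCSK7, proprotein convertases, fell by 0.55 and 0.62, and PCSK6 was not called. BSG, an inducer of MMPs, rose by 0.39.

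Among ADAMTS-like proteins, which share the ancillary domains without the protease, 4 of 4 tested genes were higher, with PAPLN (papilin) at 4.25 ± 0.344 CPM against 0.270 ± 0.0255 (log2-fold change 3.95 ± 0.28 SE, edgeR adjusted p = 7.89e-10) and ADAMTSL4, a fibrillin-binding protein, at 1.03. BMP1, the procollagen C-proteinase, was the only related protease with enough counts for the test and rose by 1.10.

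Of 19 tested substrates of ADAM10 and ADAM17, 6 were higher and 12 lower, with a median log2-fold change of -0.29. The EGF receptor ligands diverged. TGFA had 371 ± 35.4 CPM under hypoxia and 162 ± 6.05 under normoxia and rose by 1.20 on the log2 scale. EREG had 95.5 ± 7.83 against 563 ± 38.7 CPM, a log2-fold change of -2.56 (± 0.068 SE, edgeR adjusted p = 7.79e-15), AREG fell by 1.88 and HBEGF by 1.71. TNF, the substrate that named ADAM17, fell by 1.52, the shed proteoglycan SDC1 by 1.07 and the receptor IL6R by 1.09, whereas CDH1, E-cadherin, rose by 1.35.

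Of 14 transcription factors known from MMP promoters, 6 were higher and 5 lower, with a median log2-fold change of 0.32. The AP-1 genes moved in both directions: FOSL1 fell from 633 ± 77.5 to 194 ± 14.4 CPM (log2-fold change -1.70 ± 0.077 SE, edgeR adjusted p = 2.53e-12), while FOSL2 rose from 75.4 ± 11.5 to 377 ± 29.1 CPM (log2-fold change 2.32 ± 0.087 SE, edgeR adjusted p = 2.57e-13). FOS rose by 3.55, JUN by 1.90, JUNB by 1.57 and JUND by 0.88 on the log2 scale. FOSB was not called, and FOSL1 was the only AP-1 gene of the list called lower. Of the ETS genes, ETS2 rose by 2.97, while ETV4 fell by 1.05, ETV5 by 0.87 and ETS1 by 0.50.

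**Figure D4:**
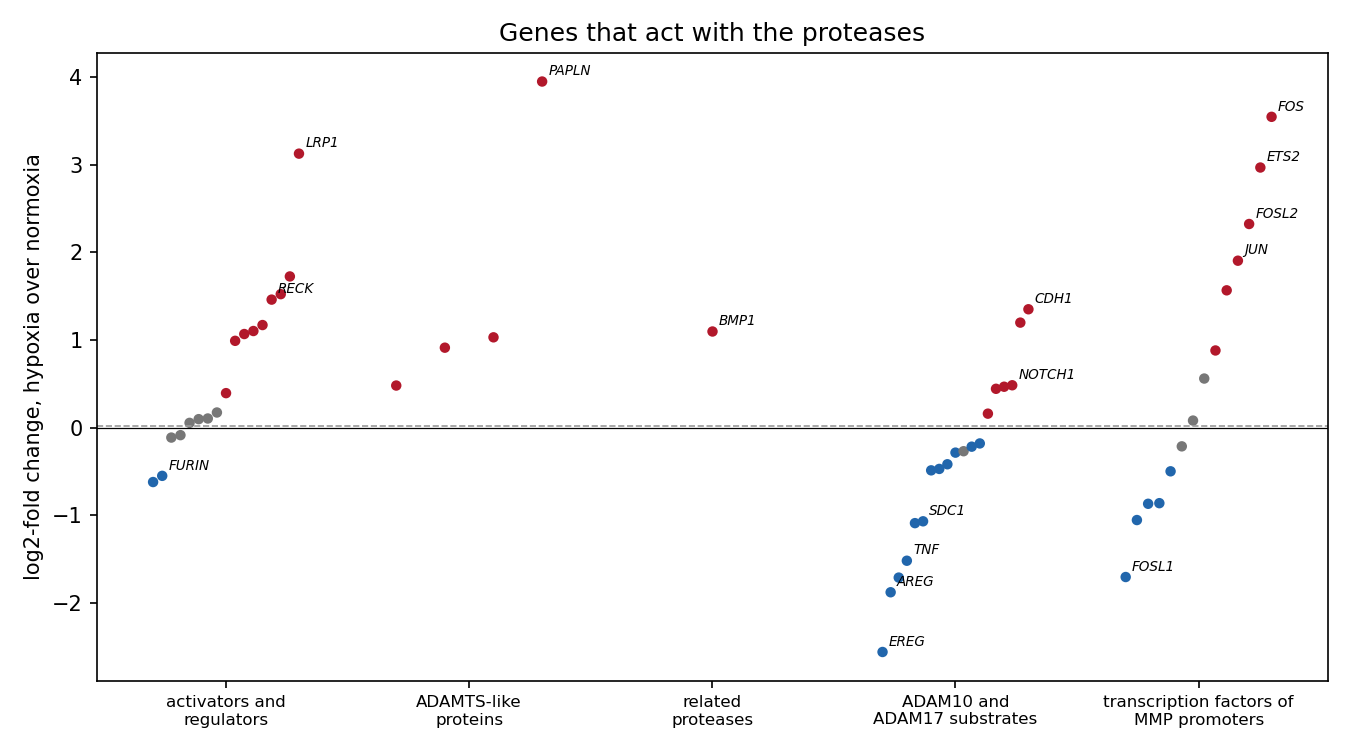
Log2-fold change, hypoxia over normoxia (vertical axis), of tested genes in 5 lists, ordered by value within each list; red marks genes called higher, blue genes called lower and grey genes not called by edgeR, and the dashed line is the median of all tested genes. EREG at -2.56 is the lowest substrate, and FOSL1 at -1.70 lies far below FOS at 3.55 and FOSL2 at 2.32.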

How the data were processed

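The authors deposited counts, whole read numbers for 21776 genes before any normalization, and FPKM of the same genes. For all 52 members the deposited FPKM follow from the counts, a gene length and the library total. The aligner, annotation and counting tool are not given in the sources used here, and the submitters' processing notes list the mouse builds GRCm38 and mm10 although the gene symbols and Entrez numbers are human. Columns were matched to samples by condition and replicate number, and columns unused numbered 0. The labels name SCC25, while one legend of the study names SCC9.

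Counts were tested with edgeR 4.0.16 (R 4.3.3; glmQLFit and glmQLFTest, condition as the only term, TMM, filterByExpr, Benjamini-Hochberg over 14255 genes at 0.05). The standard error is the log2-fold change divided by the square root of F. DESeq2 1.42.0, limma 3.58.1 on log2(FPKM + 1) (mean FPKM of 1 or more), other filters, the replicate block and omission of single libraries were alternatives. Members and lists were chosen with earlier results of these data known. Library values were given for members past the test with a log2-fold change of at least 1 in size and a mean of at least 1 CPM, and for the 21 genes in the table of a fixed list of 22. ADAM2, ADAM11, ADAM15, ADAM21, ADAM22, ADAM28, ADAMTS3, ADAMTS6, ADAMTS12, ADAMTS14, ADAMTS15, MMP7, MMP15, MMP23B, MMP25 and MMP28 were described further, some of them outside that rule and after their values were seen. Protein sequences were not used here, so the ADAMs without a catalytic site are named from general knowledge. On simulated counts of 14091 genes, 66 genes each were changed by 0.5, 1 and 2 on the log2 scale. Of these, edgeR found 53, 57 and 66, and 5.88% of all its calls were false, a single value for all sizes. Replicates differed by more than sampling noise (chi-square per gene 5.11 to 10.8).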

Additional observations from a re-analysis of the deposited data

How the results depend on the processing

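The number of members called higher (19) lay between 14 and 21 over other normalizations, filters and tests of counts, and between 16 and 19 with single libraries left out. The 14 came from the filter of at least 10 counts in every library, under which 24 members were tested. That of members called lower (6) lay between 5 and 8 over the same normalizations, filters and tests, and between 5 and 7 with single libraries left out. In the limma test of log2(FPKM + 1), and equally with a pseudocount of 0.1, 9 members were higher and 3 lower because only 16 passed the filter on FPKM; with no such filter 22 were higher and 7 lower. A log2-fold change beyond 1 in size left 2 members lower, and 2840 genes higher and 1498 lower among all tested genes. As a scale, summed CPM moved the log2 ratio of hypoxia to normoxia from 1.09 to 0.98 for the ADAMs, from 0.57 to 0.69 for the TIMPs and from -0.0045 to -0.27 for the ADAMTSs, where longer genes such as ADAMTS12 count for more. With single libraries left out the ADAMTS value ranged from -0.054 to 0.066. Values close to 0 changed sign: ADAM15 to 0.067 under a minimum of 10 counts per library and to 0.036 and 0.037 in the limma tests (pseudocounts 1 and 0.1), MMP15 to 0.038 under that minimum, 0.0065 without hypoxia replicate 3 (the lowest with 1 library left out was -0.099) and 0.0056 and 0.0060 in the limma tests, and TIMP1 to 0.0046 under that minimum. With the replicate block, 18 members were higher and 6 lower, and MMP9 lost its call. Same-numbered libraries did not deviate together (correlations 0.018, -0.069 and 0.0012), so the numbers were not taken as pairs. Depth limits 19 members that were not tested, and 3 or fewer counts in a library were taken as no measurable level; with no filter on counts MMP10 and MMP3 were called lower (edgeR adjusted p = 0.00151 and 0.0149) and ADAM2, ADAM20 and ADAMTS16 higher (0.00518, 0.0140 and 0.0449).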

Other observations

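The count table also holds transcripts named after members that the selection left out. MMP24OS, a small protein-coding transcript opposite MMP24, had 350, 472 and 340 counts under hypoxia and 451, 352 and 324 under normoxia and was not called (log2-fold change -0.03, edgeR adjusted p = 0.813). MMP24-AS1-EDEM2 had 28, 10 and 13 counts against 6, 1 and 6 and was not tested. MMP24 shares 18.1% of its exon bases with MMP24OS in GENCODE v29.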
